A study of Mus musculus with 29 samples.

Results

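RNA sequencing of subcutaneous white adipose tissue was compared between female mice lacking the coactivator gene Ncoa1 (knockout, KO) and wild-type (WT) females, all of which had received CL316,243 (CL), an agonist of the β3-adrenergic receptor. The contrast takes 7 of the 29 samples of the series, namely 3 libraries of KO females (codes F31, F32 and F33, replicates 1 to 3) and 4 libraries of WT females (codes F11 to F14, replicates 1 to 4). CL was given by intraperitoneal injection at 0.5 mg/kg body weight for 7 days. Both genotypes carry the treatment, so the effect of CL was not measured. A genotype difference present without CL and a different response to CL cannot be told apart in this contrast. The series also holds 4 KO and 4 WT libraries of CL-treated males, which give a second genotype contrast under the same drug, and saline-treated groups of both sexes. The treatment field of the labels runs on from CL316,243 through other numbers, and the groups were therefore taken from the sample titles. Strain, age, the exons removed, the tissues in which Ncoa1 was deleted and whether each library came from its own mouse were not stated in the labels. The p-values thus measure the spread between libraries.

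NCOA1 belongs to the p160 family of coactivators, which bind hormone-bound nuclear receptors and recruit enzymes that open chromatin at target genes. In white fat, stimulation of the β3-adrenergic receptor raises cyclic AMP, releases fatty acids from lipid droplets and, with repeated dosing, brings out beige adipocytes that carry the uncoupling protein UCP1 and many mitochondria. Nuclear receptors for fatty acids and for thyroid hormone control many genes of this programme.

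Expression is given as FPKM, a count of fragments divided by transcript length and by library size, in a single table of 18658 genes. Summed FPKM was 625435 to 659364 in KO libraries and 638160 to 707161 in WT libraries, and the KO mean was 5.60% lower, which did not pass an exact two-sided permutation test (p = 0.171, smallest possible p 0.0571). WT replicate 3 had the most genes listed at 0, 3595, against 2231 to 2487 in KO libraries and 2462 to 2912 in the other WT libraries. FPKM gives no read counts, so absolute depth is unknown, but from the smallest steps of the values 1 read was worth 0.959 to 1.02 times as much across the 7 libraries. Of 8 sex-linked genes in the table, 2, the Y-linked Kdm5d and Uty, were listed at 0 in all 7 libraries. Another 4 were above 0 in all 7, and the rest were above 0 in some of them. The adipocyte hormone gene Adipoq had 2431, 2504 and 2322 FPKM in KO libraries, against 1763, 2214, 1857 and 3221 FPKM in WT libraries, the labelled tissue's defining marker at a high level in every library.

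The deleted gene was examined first. Ncoa1 (chromosome 12, 4247362 to 4477206, GRCm38.p6) had 2.08, 2.17 and 1.71 FPKM in KO libraries, against 5.15, 5.95, 4.93 and 5.89 FPKM in WT libraries. Every KO library lay below every WT library, and the log2 difference of FPKM + 1 was -1.12 ± 0.13 (SE; adjusted p = 0.000603, limma with Benjamini-Hochberg adjustment over 12710 genes). A remainder of 1.99 ± 0.244 FPKM (SD, n = 3) was thus measured in KO libraries, against 5.48 ± 0.517 FPKM in WT libraries (SD, n = 4), and values per gene cannot say which exons it came from. The other p160 members did not pass. Ncoa2 averaged 4.72 ± 0.768 FPKM in KO libraries and 3.51 ± 0.612 FPKM in WT libraries (limma, adjusted p = 0.171). Every KO library lay above every WT library for Ncoa2, as in 15.9% of all genes tested. Ncoa3 averaged 5.52 ± 1.48 FPKM in KO libraries and 4.79 ± 0.272 FPKM in WT libraries (limma, adjusted p = 0.572), and its groups overlapped.

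Across all genes, 1356 of 12710 (10.7%) passed the threshold of adjusted p under 0.05. Of these, 955 (7.51%) were higher and 401 (3.15%) lower in KO libraries, and 3726 genes had an unadjusted p under 0.05. The split by direction depends on scaling. With FPKM as deposited 70.4% of calls were higher and the median log2 difference of all genes was 0.089. With libraries set to equal totals, 1378 genes were higher and 280 lower (83.1% higher), with median-of-ratios scaling 511 were higher and 532 lower (49.0%), and with quantile normalization 548 were higher and 479 lower (53.4%). The number of calls also hangs on single libraries. It was 168 without KO replicate 2, 164 without KO replicate 3, 716 without KO replicate 1, 540 without WT replicate 2, 500 without WT replicate 3, 1602 without WT replicate 1 and 1989 without WT replicate 4. Calls made whichever of the 7 libraries was left out numbered 61 of the 401 lower genes (15.2%) and 53 of the 955 higher genes (5.55%).

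**Figure D1:**
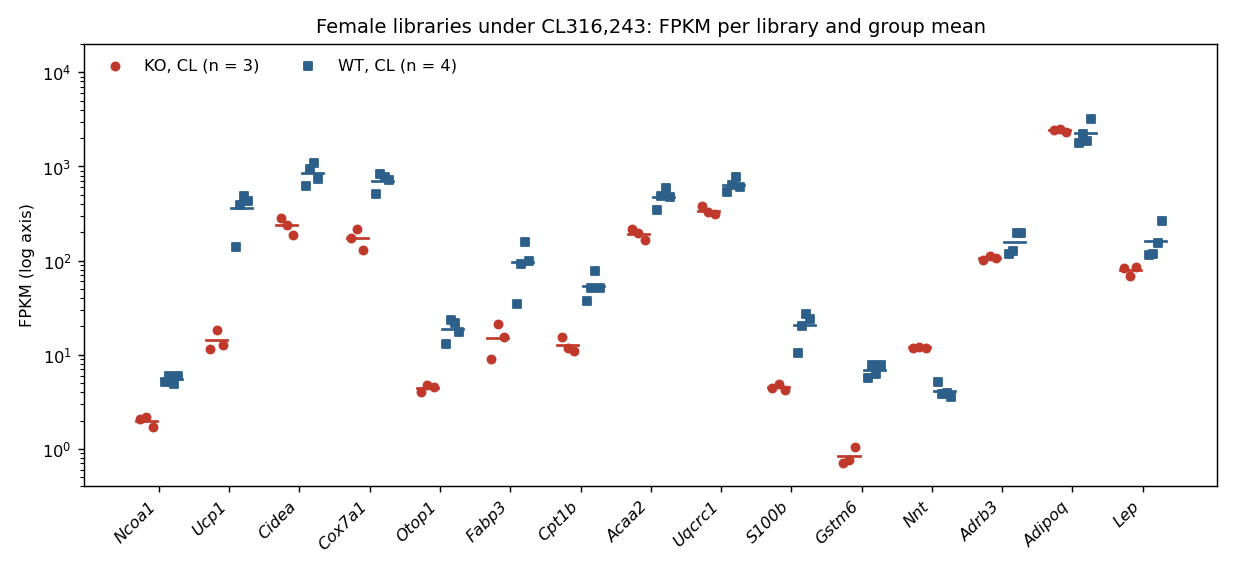
FPKM on a log axis of 15 genes in each female CL library, KO (n = 3) left of WT (n = 4), with bars at the group means. Ucp1 lies at 11.45 to 18.37 FPKM in KO and 139.19 to 489.72 FPKM in WT libraries, Nnt is higher in every KO library, and Adipoq overlaps between the groups.

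Genes that mark brown and beige adipocytes were lower in KO fat. Of 27 tested members of this list, 11 fell and 0 rose (40.7% called, against 10.7% of all genes tested). The list median was -0.60 against 0.089 for all genes. The 11 were Ucp1, Acot11, Fabp3, Cox7a1, S100b, Otop1, Cidea, Ntrk3, Cox8b, Letmd1 and Clstn3. In 12 of the 27 every KO library lay below every WT library, as in 7.08% of all tested genes. The count was 9 to 12 with any 1 library left out, and 11 under each of the 3 other scalings.

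Ucp1, the proton carrier that turns mitochondrial respiration into heat, had 11.5, 18.4 and 12.7 FPKM in KO libraries, against 139, 387, 489.7 and 435 FPKM in WT libraries. The highest KO library was far below the lowest WT library. Ucp1 fell by 4.46 ± 0.45 (SE) on the log2 scale, with a 25.6-fold lower mean (adjusted p = 0.000160, limma), and it was called under all 20 alternative settings. Cidea, which enlarges lipid droplets and is abundant in brown fat, had 282, 241 and 186 FPKM in KO libraries, against 617, 935, 1101 and 734 FPKM in WT libraries (log2 -1.82 ± 0.29, adjusted p = 0.00425). Cox7a1, a cytochrome oxidase subunit of muscle and brown fat, had 174, 215 and 131 FPKM in KO libraries, against 512, 827, 769.9 and 717 FPKM in WT libraries (log2 -2.03 ± 0.24, adjusted p = 0.000593). Both genes separated the genotypes completely, with means 3.59-fold and 4.08-fold lower in KO libraries. Otop1, a proton channel gene enriched in brown fat, had 4.02, 4.78 and 4.57 FPKM in KO libraries, against 13.0, 23.5, 21.7 and 17.3 FPKM in WT libraries (log2 -1.83 ± 0.18, adjusted p = 0.000160). S100b, a calcium-binding protein that mouse thermogenic adipocytes release and that favours sympathetic nerve growth, had 4.45, 4.93 and 4.18 FPKM in KO libraries, against 10.5, 20.3, 26.8 and 24.2 FPKM in WT libraries (log2 -1.89 ± 0.22, adjusted p = 0.000498). WT replicate 1 was the lowest WT library in all 5 of these genes and stayed above every KO library. Acot11, an acyl-CoA thioesterase, averaged 2.78 ± 0.366 FPKM in KO libraries and 22.8 ± 12.2 FPKM in WT libraries, and Fabp3, a fatty acid binding protein of muscle and brown fat, averaged 15.2 ± 6.15 FPKM in KO libraries and 95.7 ± 49.5 FPKM in WT libraries. Both fell and were called whichever library was left out, but Fabp3 was not called in the limma fit of all 24 libraries of the table (adjusted p = 0.168).

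Other genes of the beige programme did not pass. Ppargc1a, a coactivator that drives mitochondrial genes, had 0.9, 0.45 and 0.53 FPKM in KO libraries, against 0.77, 1.04, 1.0 and 1.46 FPKM in WT libraries (log2 -0.35 ± 0.14, adjusted p = 0.124). Dio2, the deiodinase that makes active thyroid hormone, averaged 0.677 ± 0.470 FPKM in KO libraries and 1.54 ± 0.650 FPKM in WT libraries (adjusted p = 0.156). Elovl3, a fatty acid elongase of stimulated brown fat, averaged 25.4 ± 4.00 FPKM in KO libraries and 34.8 ± 9.49 FPKM in WT libraries (adjusted p = 0.541). Ppargc1a and Dio2 lie near 1 FPKM, where the added pseudocount of 1 makes log2 differences smaller. Prdm16, a transcription factor of brown fat fate, differed by -0.0175 and was not called. Among 27 tested regulators of mitochondria and thermogenesis, Irf4 (log2 1.32 ± 0.28, adjusted p = 0.0160) and Tbx15 (log2 0.58 ± 0.15, adjusted p = 0.0280) were higher and Cebpb (log2 -1.07 ± 0.31, adjusted p = 0.0432) was lower, a share of 11.1% against 10.7% of all genes tested. Irf4 was not called without any 1 of the KO libraries, Tbx15 without any 1 of those or WT replicate 2 or 3, and Cebpb without any 1 of the 7 libraries.

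Some of these genes are also expressed in skeletal muscle, among them Cox7a1, Cox8b, Fabp3 and Cpt1b. The summed FPKM of 19 muscle genes, 11 of them above 0 in all 7 libraries, was 71.0 to 86.1 in KO libraries and 113 to 156 in WT libraries, and its part in the differences was not tested. Of the 8 muscle genes tested, 0 were called. The defining marker Ckm was at or near 0, with 0.03, 0.06 and 0.38 FPKM in KO libraries, against 0.09, 0, 0 and 0.8 FPKM in WT libraries, and Acta1 had 3.43, 5.6 and 4.51 FPKM in KO libraries, against 19.3, 4.27, 3.69 and 32.5 FPKM in WT libraries. In a whole tissue, fewer cells of a type and less RNA per cell cannot be told apart, which holds for every gene group described here.

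Because NCOA1 acts through nuclear receptors, the promoters of genes that fell were searched for the core sequence these receptors bind. RefSeq promoters (GRCm38.p6, 250 bases before to 50 after the start) were searched on both strands for the hexamer AGGTCA (on the opposite strand TGACCT), which can lie inside longer receptor elements. The hexamer was in 71 of 324 promoters of genes called lower (21.9%), in 98 of 739 promoters of genes called higher (13.3%) and in 1524 of 10103 promoters of all genes tested (15.1%). Of the 54 members of the thermogenic and mitochondrial lists called lower, 42 had a promoter in the table and 10 of these (23.8%) held it, namely Acadm, Acadvl, Cox5b, Cox7b, Fh1, Idh3g, Letmd1, Ogdh, Sdhb and Ucp1. Counted by gene in the same way, the cyclic AMP response element TGACGTCA was in 4.63% of lower genes, 2.57% of higher genes and 3.41% of all. The E-box CACGTG was in 10.8% of lower genes, 14.1% of higher genes and 11.6% of all. A longer receptor element, the hexamer repeated after 1 base, was in 0 of 324 lower and 0 of 739 higher genes. Among all genes tested it was in 4 of 10103. Promoters are shown for Ucp1, for the fatty acid oxidation gene Acadvl and the respiratory chain gene Sdhb, each with the hexamer in capitals, and for Otop1, which holds none. Ucp1 is at chr8:83290098-83290397 (plus strand, hexamer from base -14 counted from the start), Acadvl at chr11:70015379-70015678 (minus strand), Sdhb at chr4:140961021-140961320 (plus strand) and Otop1 at chr5:38277154-38277453 (plus strand). A match is a run of letters and not a measured binding site.
Ucp1: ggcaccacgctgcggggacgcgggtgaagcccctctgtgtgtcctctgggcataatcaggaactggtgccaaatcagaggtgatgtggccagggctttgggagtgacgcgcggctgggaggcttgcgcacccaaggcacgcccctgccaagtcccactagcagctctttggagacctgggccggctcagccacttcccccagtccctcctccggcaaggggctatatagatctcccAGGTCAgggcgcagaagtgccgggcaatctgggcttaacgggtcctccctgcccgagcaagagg
Acadvl: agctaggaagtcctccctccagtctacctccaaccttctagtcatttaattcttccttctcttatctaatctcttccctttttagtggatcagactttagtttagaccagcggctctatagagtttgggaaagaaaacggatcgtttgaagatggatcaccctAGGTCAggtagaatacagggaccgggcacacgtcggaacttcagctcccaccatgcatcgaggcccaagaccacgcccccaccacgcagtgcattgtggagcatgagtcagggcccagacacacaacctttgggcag
Sdhb: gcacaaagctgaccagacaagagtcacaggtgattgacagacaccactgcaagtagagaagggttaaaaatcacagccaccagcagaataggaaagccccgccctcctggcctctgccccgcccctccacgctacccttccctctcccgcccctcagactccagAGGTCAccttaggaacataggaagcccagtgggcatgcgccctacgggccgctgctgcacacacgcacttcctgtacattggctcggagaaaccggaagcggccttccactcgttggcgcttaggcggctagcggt
Otop1: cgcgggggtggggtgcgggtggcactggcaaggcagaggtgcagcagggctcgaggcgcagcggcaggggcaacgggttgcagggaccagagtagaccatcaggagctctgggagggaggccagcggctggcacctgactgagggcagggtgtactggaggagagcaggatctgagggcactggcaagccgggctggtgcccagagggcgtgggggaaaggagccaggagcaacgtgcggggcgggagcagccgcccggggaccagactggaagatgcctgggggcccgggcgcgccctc

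Enzymes of mitochondrial fatty acid oxidation were lower in KO fat as well. Of 23 members, 14 fell and 1 rose (65.2% called, against 10.7% of all genes tested). The list median was -0.47. Cpt1b, the muscle-type carnitine palmitoyltransferase that lets long-chain fatty acids into mitochondria, had 15.5, 11.9 and 10.9 FPKM in KO libraries, against 36.9, 51.4, 77.6 and 51.0 FPKM in WT libraries (log2 -1.97 ± 0.27, adjusted p = 0.00177). In the limma fit of all 24 libraries of the table Cpt1b was not called (adjusted p = 0.0611). Acaa2, the thiolase of the last step of the cycle, had 219, 197 and 166 FPKM in KO libraries, against 348, 491, 593 and 474 FPKM in WT libraries (log2 -1.28 ± 0.17, adjusted p = 0.00141). Acads, the short-chain dehydrogenase, had 125, 122 and 109 FPKM in KO libraries, against 158, 192, 223 and 207 FPKM in WT libraries (log2 -0.70 ± 0.11, adjusted p = 0.00469). The groups did not overlap in any of the 3, and these were the members called whichever library was left out. Hadha (-0.71) and Hadhb (-0.77), the subunits of the trifunctional protein, and the dehydrogenases Acadvl (-0.68) and Acadm (-0.60) also fell on the log2 scale. The member that rose was Cpt1a, the liver-type counterpart of Cpt1b, which averaged 13.3 ± 2.31 FPKM in KO libraries and 7.44 ± 2.32 FPKM in WT libraries (log2 0.79 ± 0.22, adjusted p = 0.0372) and was not called without KO replicate 2 or 3 or WT replicate 2 or 3. The number of lower members was 3 without KO replicate 2, KO replicate 3 or WT replicate 3, 5 without WT replicate 2, and 5 with quantile normalization. In peroxisomes, Ech1, a dienoyl-CoA isomerase (log2 -1.01 ± 0.11, adjusted p = 0.000420), and Phyh, which starts the breakdown of branched fatty acids (log2 -0.50 ± 0.11, adjusted p = 0.0153), fell among 22 members (9.09% called), Phyh not without KO replicate 2 or 3.

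The nuclear-encoded respiratory chain differed less per gene but in many genes. Of 44 subunits, 20 fell and 0 rose (45.5% called, against 10.7% of all genes tested). Of the 44, 42 had a negative log2 difference, while 61.3% of all genes tested had a positive one. The list median was -0.43. Uqcrc1, a core subunit of complex III, had 377, 330.3 and 313 FPKM in KO libraries, against 538, 643, 767 and 600.2 FPKM in WT libraries (log2 -0.89 ± 0.13, adjusted p = 0.00292). Ndufv1, a catalytic subunit of complex I, had 176, 148 and 137 FPKM in KO libraries, against 233, 248, 266 and 238 FPKM in WT libraries (log2 -0.68 ± 0.10, adjusted p = 0.00401). In both, all KO libraries lay below all WT libraries, as they did for 27 of the 44 subunits and 7.08% of all genes tested. Lower subunits came from every complex, with Sdhb of complex II (-0.69), Cyc1 of complex III (-0.84), Cox5b (-0.77) and Cox6a1 (-0.93) of complex IV, and Atp5b (-0.56) and Atp5d (-0.79) of the ATP synthase. Atp5g1 and Atp5g3, which encode the ring subunit of the synthase, had log2 differences of 0.12 and 0.15 and were not called. The count of lower subunits was 2 without KO replicate 3, 4 without KO replicate 2, 13 without KO replicate 1, 9 without WT replicate 2 or WT replicate 3, and 10 with quantile normalization. Uqcrc1 and Ndufv1 were called whichever library was left out.

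Of 27 genes of the tricarboxylic acid cycle and pyruvate entry, 10 fell and 0 rose, with a median of -0.32. The share called was 37.0%, against 10.7% of all genes tested. All subunits of NAD-dependent isocitrate dehydrogenase were among the genes that fell. Idh3g had 417, 412 and 363 FPKM in KO libraries, against 637, 856, 817 and 681 FPKM in WT libraries (log2 -0.90 ± 0.14, adjusted p = 0.00401). Idh3b (-0.75 ± 0.13) and Idh3a (-0.74 ± 0.17) fell too. Mdh2, mitochondrial malate dehydrogenase, averaged 499.99 ± 33.3 FPKM in KO libraries and 884 ± 143 FPKM in WT libraries, while its cytosolic counterpart Mdh1 differed by 0.0602 on the log2 scale and was not called. Suclg1, a succinyl-CoA ligase subunit, averaged 97.2 ± 10.9 FPKM in KO libraries and 185 ± 31.7 FPKM in WT libraries. The count was 4 without KO replicate 2 or 3 and 6 without WT replicate 3, and Idh3b, Idh3g, Mdh2 and Suclg1 were called whichever library was left out. In glycolysis, 5 of 30 genes fell and 0 rose (16.7% called, against 10.7% of all genes tested). They were Ldhb (-0.90 ± 0.15), Eno1 (-1.04 ± 0.21), Gapdh (-0.73 ± 0.22), Aldoa (-0.68 ± 0.20) and Tpi1 (-0.33 ± 0.0889), all enzymes between hexose and lactate. That count was 1, Ldhb, without KO replicate 2 or 3, 2 without KO replicate 1 or WT replicate 2 or 3, and 2 to 3 under the other scalings.

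**Figure D2:**
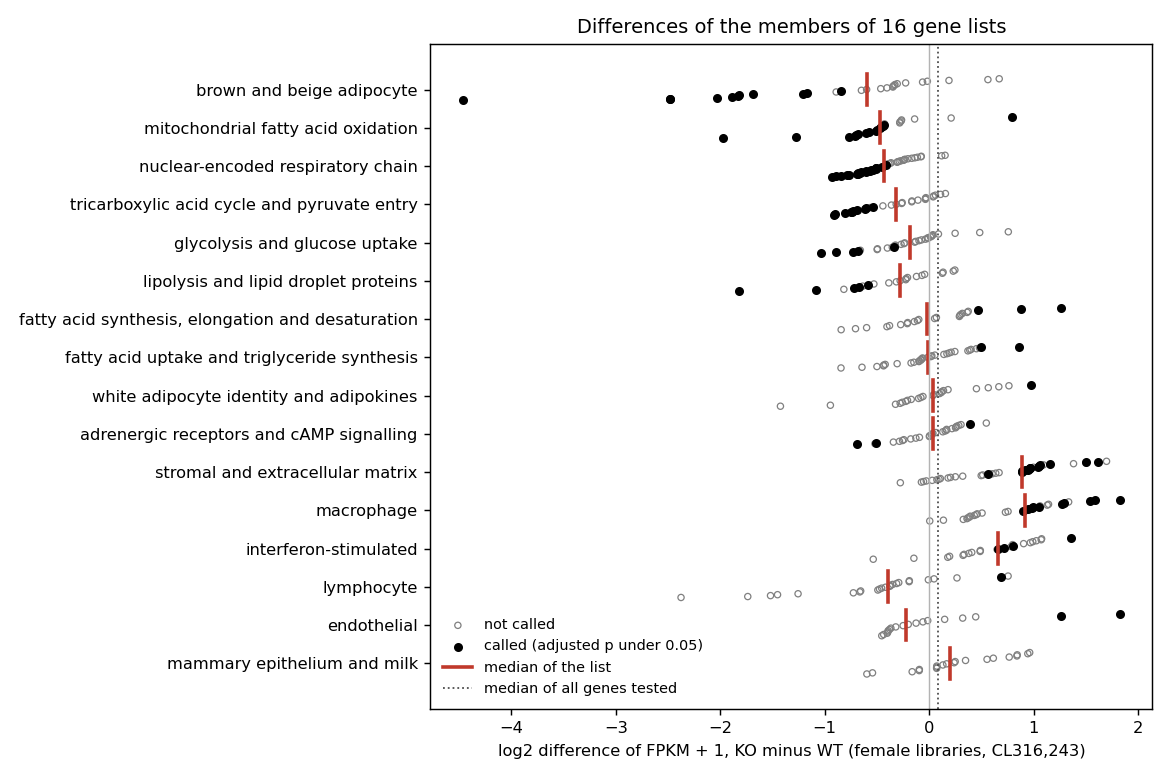
Log2 differences of FPKM + 1, KO minus WT females under CL, of every tested member of 16 gene lists (points, filled where called at adjusted p under 0.05), with a bar at each list's median. The brown and beige list has a median of -0.60 and the respiratory chain -0.43, while the stromal and macrophage lists have medians of 0.89 and 0.92.

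Lipid droplet and lipolysis genes fell in part. Of 21 members, 5 fell (Cidea, Plin5, Pnpla3, Pnpla2 and Mgll) and 0 rose. The share called was 23.8%, against 10.7% of all genes tested. Pnpla2, the triglyceride lipase that takes off the first fatty acid, had 1636, 1426 and 1298 FPKM in KO libraries, against 2386, 2406, 2268 and 2189 FPKM in WT libraries (log2 -0.68 ± 0.14, adjusted p = 0.0149). Mgll, the monoglyceride lipase of the last step, had 429, 433 and 431 FPKM in KO libraries, against 647, 656, 634 and 654 FPKM in WT libraries (log2 -0.59 ± 0.0886, adjusted p = 0.00358). Each group spanned a narrow range for Mgll, and the groups stood apart for both. Plin5, which ties droplets to mitochondria, had 14.4, 9.48 and 7.7 FPKM in KO libraries, against 24.5, 22.8, 20.6 and 23.3 FPKM in WT libraries (log2 -1.09 ± 0.26, adjusted p = 0.0229). Lipe, the hormone-sensitive lipase between these steps, differed by -0.22 on the log2 scale and was not called. The count was 2 without KO replicate 2 or 3 and 3 without WT replicate 2, with Cidea and Mgll called whichever library was left out. Mgll was not called with quantile normalization (adjusted p = 0.0591).

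Single lipid-building genes were called in the other direction, without a rise of their lists. The median was -0.024 for fatty acid synthesis, elongation and desaturation and 0.0032 for fatty acid uptake and triglyceride synthesis. That of all genes tested was 0.089. Of 22 genes of fatty acid synthesis, elongation and desaturation 3 rose, Fads2 (1.27 ± 0.28), Fads1 (0.88 ± 0.18) and Elovl5 (0.47 ± 0.11), which serve polyunsaturated fatty acid synthesis, and 0 fell. Fads2, the first desaturase of that path, had 34.3, 29.6 and 30.6 FPKM in KO libraries, against 10.2, 13.7, 17.6 and 9.78 FPKM in WT libraries (adjusted p = 0.0172). Of 32 genes of fatty acid uptake and triglyceride synthesis, Gpam, Gpat3 and Acsl4 rose and 0 fell. Gpam, the acyltransferase that opens glycerolipid synthesis, had 111, 83.4 and 78.9 FPKM in KO libraries, against 49.0, 53.2, 46.7 and 47.7 FPKM in WT libraries (log2 0.86 ± 0.14, adjusted p = 0.00555) and was called under all 20 alternatives. The shares called in these lists, 13.6% and 9.38%, are near the 10.7% of all genes. Without KO replicate 2 they gave 0 and 1 calls, and without KO replicate 3 they gave 1 and 1.

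Genes of adrenergic input were called at the share of all genes tested, 10.7% in both, and those of white adipocyte identity at 4.35%. Of 28 genes of adrenergic receptors and cyclic AMP signalling, Gnas, the stimulatory G protein (log2 -0.51 ± 0.11, adjusted p = 0.0168), and Adrb1, the β1 receptor (log2 -0.70 ± 0.19, adjusted p = 0.0345), fell and Prkacb, a catalytic subunit of protein kinase A (log2 0.39 ± 0.12, adjusted p = 0.0472), rose. None of these 3 was called without KO replicate 2 or without KO replicate 3. Adrb3, the receptor of the drug, had 102, 111 and 107 FPKM in KO libraries, against 117, 125, 195 and 195 FPKM in WT libraries. These groups do not overlap, but the difference did not pass (log2 -0.52 ± 0.19, adjusted p = 0.0873). Lep, the hormone leptin, had 83.7, 67.9 and 85.6 FPKM in KO libraries, against 114, 117, 154 and 262 FPKM in WT libraries and likewise did not pass (log2 -0.95 ± 0.32, adjusted p = 0.0675). Adipoq, given above, differed by 0.14 ± 0.19 (adjusted p = 0.681). Metrnl, a secreted protein linked in mice to beige fat, had 14.2, 20.3 and 17.6 FPKM in KO libraries, against 7.97, 7.24, 8.41 and 9.51 FPKM in WT libraries (log2 0.98 ± 0.18, adjusted p = 0.00947). It was the 1 call among 23 genes of white adipocyte identity, and was not called without KO replicate 2 (adjusted p = 0.0523).

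Of 23 insulin signalling genes 17.4% were called, against 10.7% of all genes tested: Grb14 fell and Insr, Grb10 and Igfbp5 rose. Grb14, an adaptor that inhibits the insulin receptor, had 1.89, 1.58 and 2.88 FPKM in KO libraries, against 10.6, 7.9, 11.8 and 16.0 FPKM in WT libraries (log2 -1.99 ± 0.30, adjusted p = 0.00344) and was called under all 20 alternatives. Insr (0.44 ± 0.12), Grb10 (0.76 ± 0.18) and Igfbp5 (1.35 ± 0.37) were not called without KO replicate 2, KO replicate 3, WT replicate 2 or WT replicate 3. Of 20 genes of steroid receptors and steroid metabolism 5 rose, among them Akr1c14 (1.80 ± 0.31), Pgr (1.16 ± 0.35), Esr1 (0.65 ± 0.19) and Nr3c1 (0.48 ± 0.14), and 0 fell. The share called was 25.0%, against 10.7% of all genes tested. Akr1c14, a reductase that inactivates steroids, had 26.1, 32.3 and 21.6 FPKM in KO libraries, against 11.3, 4.24, 3.67 and 11.8 FPKM in WT libraries (adjusted p = 0.00700). It was the 1 call of this list with median-of-ratios scaling or quantile normalization and without any 1 of KO replicates 1 to 3 or WT replicates 2 and 3, and 2 were called without WT replicate 1. In the fit of only the 7 female CL libraries the list gave 0 calls, and Akr1c14 had an adjusted p of 0.0594 under limma. Of 22 genes of the unfolded protein response 4 rose and 0 fell (18.2% called, against 10.7% of all genes tested). Among them Hsp90b1, a chaperone of the endoplasmic reticulum, had 166, 158 and 165 FPKM in KO libraries, against 117, 91.5, 88.9 and 116 FPKM in WT libraries (log2 0.67 ± 0.11, adjusted p = 0.00646). That list gave 1 call without KO replicate 3 and 2 without KO replicate 1 or 2 or WT replicate 2 or 3.

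Matrix and fibroblast genes were higher in KO fat. Of 37 stromal and extracellular matrix genes, 14 rose and 0 fell (37.8% called, against 10.7% of all genes tested). Of the 37, 33 were positive, against 61.3% of all genes tested, and the list median was 0.89. In 20 of the 37 every KO library lay above every WT library, as in 15.9% of all genes tested. Mmp2, a gelatinase that remodels matrix, had 93.1, 111 and 106 FPKM in KO libraries, against 40.9, 38.2, 62.3 and 60.1 FPKM in WT libraries (log2 1.05 ± 0.20, adjusted p = 0.00988). Pdgfra, a receptor that marks adipocyte progenitors and fibroblasts, had 8.57, 10.8 and 9.48 FPKM in KO libraries, against 5.99, 2.67, 4.81 and 5.17 FPKM in WT libraries (log2 0.94 ± 0.21, adjusted p = 0.0181). Thbs2, a matricellular protein, had 16.5, 22.5 and 17.2 FPKM in KO libraries, against 4.82, 3.21, 6.47 and 11.4 FPKM in WT libraries (log2 1.51 ± 0.33, adjusted p = 0.0178). The genotypes did not overlap in any of the 3, and the WT library nearest to the KO libraries was replicate 3 for Mmp2, replicate 1 for Pdgfra and replicate 4 for Thbs2. The collagens Col1a2 (1.16), Col5a1 (1.04), Col3a1 (0.96) and Col6a3 (0.89), and the proteoglycans Dcn (0.96) and Lum (0.89), rose too. Col4a1, a basement membrane collagen, differed by 0.0940 and was not called. The count of 14 was 0 without KO replicate 2, 2 without KO replicate 3, 6 without WT replicate 2 and 9 without WT replicate 3. Outside the list, Sfrp4, a secreted Wnt antagonist (log2 2.10 ± 0.54, adjusted p = 0.0284), rose with 49.1 ± 7.14 FPKM in KO libraries and 11.3 ± 4.87 FPKM in WT libraries, and Arsi, a sulfatase (log2 1.65 ± 0.19, adjusted p = 0.000565), rose with 8.73 ± 1.14 FPKM in KO libraries and 2.19 ± 0.886 FPKM in WT libraries. Sfrp4 was not called without any 1 of the KO libraries, WT replicate 2 or WT replicate 3, and Arsi was called under all 20 alternatives.

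Macrophage genes were higher too. Of 28 members 10 rose and 0 fell (35.7% called, against 10.7% of all genes tested). All 28 had a positive log2 difference, as did 61.3% of all genes tested, and the median was 0.92. C1qa, a complement subunit made by resident macrophages, had 162, 268 and 275 FPKM in KO libraries, against 114, 101, 97.0 and 129 FPKM in WT libraries (log2 1.06 ± 0.22, adjusted p = 0.0154). Mrc1, the mannose receptor, had 18.7, 26.3 and 29.5 FPKM in KO libraries, against 7.11, 4.38, 8.01 and 12.0 FPKM in WT libraries (log2 1.59 ± 0.32, adjusted p = 0.0139). Itgam, an integrin of myeloid cells, had 7.13, 10.3 and 12.5 FPKM in KO libraries, against 2.86, 1.31, 3.67 and 3.5 FPKM in WT libraries (log2 1.54 ± 0.29, adjusted p = 0.0105). In all 3, KO replicate 1 was the lowest KO library and still above every WT library. The other calls were Lyve1, Cd163, C1qb, C1qc, Adgre1, Fcgr1 and Ccr2. The count was 0 without KO replicate 2, 0 without KO replicate 3, and 6 without WT replicate 2 or without WT replicate 3. Outside the list, F13a1 (1.87 ± 0.44) and Ccl6 (1.62 ± 0.34), both made by macrophages, rose, and neither was called without KO replicate 2 or KO replicate 3, nor F13a1 without WT replicate 2 or WT replicate 3. Of 23 interferon-stimulated genes 4 rose and 0 fell (17.4% called, against 10.7% of all genes tested). Among those that rose were Ifit1 (1.36 ± 0.33), Ifih1 (0.80 ± 0.16) and Gbp3 (0.66 ± 0.19). Their count was 0 without KO replicate 2 or 3, 1 without WT replicate 2 or 3, 11 without WT replicate 1, and 2 to 8 under the other scalings.

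Markers of other cell types moved unevenly among the 7 libraries, and their part in the matrix and macrophage differences was not tested. The summed FPKM of 25 lymphocyte genes, all above 0 in all 7 libraries, was 153 to 1069 in KO libraries and 193 to 1611 in WT libraries. Cd79a, a B cell receptor subunit, had 4.12, 6.66 and 92.2 FPKM in KO libraries, against 44.5, 199, 134 and 32.2 FPKM in WT libraries, and the lowest library of each group was KO replicate 1 and WT replicate 4. The 25 mammary epithelium and milk genes, 20 of them above 0 in all 7 libraries, summed to 530.0 to 1600.2 FPKM in KO libraries and 373 to 2011 FPKM in WT libraries, with 0 of 20 tested called. Krt18, an epithelial keratin, had 418, 142 and 189.9 FPKM in KO libraries, against 386, 87.1, 83.5 and 162 FPKM in WT libraries and was highest in replicate 1 of each group. Without both of those libraries, a setting chosen after seeing the data, the stromal list had 10 higher members, the macrophage list 10 and the brown and beige list 12 lower members. The 7 erythrocyte genes, 6 of them above 0 in all 7 libraries, summed to 4266 to 5717 FPKM in KO libraries and 4797 to 16896 FPKM in WT libraries, with 0 of 5 tested called.

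**Figure D3:**
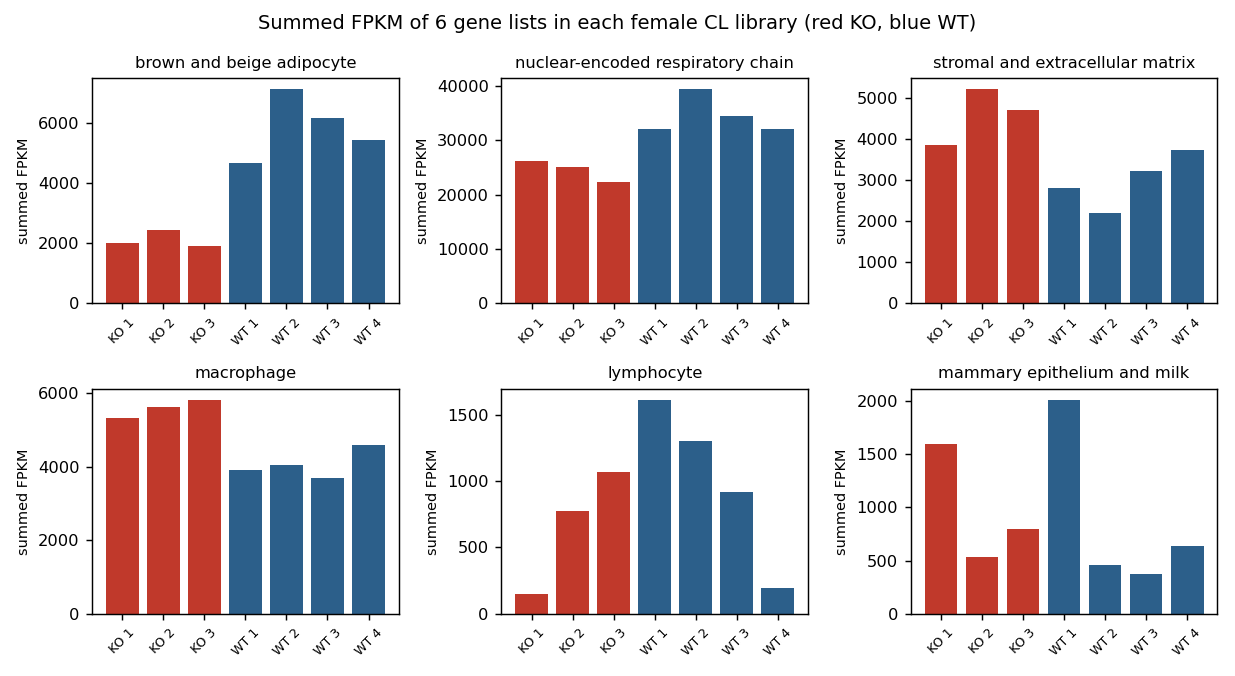
Summed FPKM of 6 gene lists (panels) in each female CL library, KO replicates 1 to 3 left of WT replicates 1 to 4. The brown and beige sums are 1895 to 2452 in KO and 4670 to 7138 in WT libraries and the macrophage sums are 5336 to 5826 in KO and 3709 to 4608 in WT libraries, while the lymphocyte sums overlap between the groups.

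Genes of vessels, nerves and other cell types were counted in the same way. Of 18 endothelial genes 11.1% were called, against 10.7% of all genes tested: Pdpn (1.27 ± 0.29) and Lyve1 (1.82 ± 0.51), both carried by lymphatic vessels, rose, and the list median was -0.22. Neither was called without KO replicate 2, KO replicate 3, WT replicate 2 or WT replicate 3. Pecam1, carried by all endothelium, differed by -0.25 on the log2 scale and was not called. Of 13 Schwann cell and nerve genes 46.2% were called, against 10.7% of all genes tested. Of the called genes 4 rose, among them Prx and Ngfr, and 2 fell, Calca and S100b. S100b is also counted in the brown and beige list. Calca, which encodes calcitonin and a sensory neuropeptide, had 3.44, 0.99 and 0.97 FPKM in KO libraries, against 77.6, 56.0, 12.6 and 5.41 FPKM in WT libraries. The WT libraries spanned a wide range, and the difference (log2 -3.27 ± 0.65, adjusted p = 0.0122) was not called without KO replicate 2 or KO replicate 3 (adjusted p = 0.0535 and 0.0598). Of the 4 genes that rose, 0 were called without KO replicate 2, KO replicate 3, WT replicate 2 or WT replicate 3. Under limma, 0 genes passed among 21 of cell division, 13 of smooth muscle and pericytes, 10 of neutrophils and mast cells, 2 of mesothelium and 9 of major urinary proteins. In the order given, 10, 4, 9, 2 and 9 of them had a positive log2 difference, as did 61.3% of all genes tested. In 5 of the 10 neutrophil and mast cell genes every KO library lay above every WT library, as in 15.9% of all genes tested. The urinary protein median was 0.75 in females and 0.73 in males.

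The largest called rises, those of Dmbt1 and Ido1, lay outside these groups. Dmbt1, a mucin-like epithelial protein, had 109, 34.7 and 39.4 FPKM in KO libraries, against 16.2, 1.31, 0.95 and 3.95 FPKM in WT libraries (log2 3.61 ± 0.57, adjusted p = 0.00414). Ido1, an enzyme that breaks down tryptophan, had 90.2, 20.5 and 31.6 FPKM in KO libraries, against 16.6, 0.98, 1.88 and 3.81 FPKM in WT libraries (log2 3.09 ± 0.58, adjusted p = 0.00998). In both genes the highest library of each group was replicate 1, the one highest in Krt18, whose part was not tested. Neither passed when the 7 libraries were fitted without the males (adjusted p = 0.0542 for Dmbt1 and 0.0771 for Ido1). Plod2, a collagen lysyl hydroxylase, had 37.6, 18.1 and 17.3 FPKM in KO libraries, against 16.9, 3.17, 2.25 and 4.43 FPKM in WT libraries (log2 1.98 ± 0.44, adjusted p = 0.0187), again with replicate 1 highest in each group, and was not called without any 1 of the KO libraries or WT replicate 2 or 3. Akr1c18, a progesterone-inactivating reductase, had 38.5, 43.2 and 32.9 FPKM in KO libraries, against 8.73, 7.59, 8.37 and 9.5 FPKM in WT libraries (log2 2.03 ± 0.44, adjusted p = 0.0168), and was not called without KO replicate 2 or KO replicate 3.

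Several falls lay outside the lists too. Lrmda, named for melanocyte differentiation, had 2.8, 1.85 and 2.21 FPKM in KO libraries, against 13.2, 11.7, 16.2 and 20.7 FPKM in WT libraries (log2 -2.30 ± 0.23, adjusted p = 0.000160). Ppp1r3b, which brings a phosphatase to glycogen, had 14.1, 5.51 and 11.2 FPKM in KO libraries, against 24.7, 51.8, 81.6 and 53.4 FPKM in WT libraries (log2 -2.23 ± 0.38, adjusted p = 0.00604). Both separated the genotypes and were called under all 20 alternatives. Tmem45b, a membrane protein gene, averaged 39.9 ± 13.1 FPKM in KO libraries and 161 ± 77.7 FPKM in WT libraries (log2 -1.90 ± 0.41, adjusted p = 0.0157) and was not called without KO replicate 1 or KO replicate 2.

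A small set of genes separated the genotypes with little spread. Gstm6, a glutathione transferase, had 0.7, 0.77 and 1.04 FPKM in KO libraries, against 5.66, 7.77, 6.2 and 7.73 FPKM in WT libraries (log2 -2.09 ± 0.16, adjusted p = 1.85e-05). Nnt, the inner-membrane transhydrogenase that makes NADPH, had 11.8, 12.2 and 11.9 FPKM in KO libraries, against 5.19, 3.84, 3.95 and 3.52 FPKM in WT libraries (log2 1.35 ± 0.12, adjusted p = 4.24e-05). Both were called under all 20 alternatives. Eipr1, which acts in endosome transport, had 8.46, 9.03 and 10.0 FPKM in KO libraries, against 20.6, 22.9, 26.1 and 22.7 FPKM in WT libraries (log2 -1.24 ± 0.10, adjusted p = 1.85e-05). Ide, the insulin-degrading enzyme, had 37.7, 33.1 and 31.7 FPKM in KO libraries, against 16.9, 14.6, 13.6 and 14.4 FPKM in WT libraries (log2 1.15 ± 0.10, adjusted p = 4.24e-05). Trf, the iron carrier transferrin, had 1890.4, 1777 and 1649 FPKM in KO libraries, against 798, 825, 732 and 1053 FPKM in WT libraries (log2 1.07 ± 0.14, adjusted p = 0.00152). In these 5 genes the genotypes did not overlap, and the difference had the same direction and passed in males, with male log2 differences of -2.47 for Gstm6, 1.14 for Nnt, -1.47 for Eipr1, 0.92 for Ide and 1.19 for Trf. Eipr1, Ide and Trf were singled out after their values were seen.

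The male libraries allow a test of whether the genotype difference itself differs by sex. In KO against WT males 270 of 12710 genes (2.12%) passed, 100 higher (0.787%) and 170 lower (1.34%). Of the genes called lower, 70 were shared, which is 17.5% of the female and 41.2% of the male calls. Of the genes called higher, 18 were shared, 1.88% of the female and 18.0% of the male calls. A call in 1 sex and not in the other does not show a difference between the sexes, and the test of that difference passed for 4 genes (0.0315%), with 2868 at an unadjusted p under 0.05. Ucp1 fell by 4.72 on the log2 scale in males (adjusted p = 5.95e-05), and its difference between the sexes did not pass (0.26, adjusted p = 0.828). The brown and beige list had 11 lower members in females and 10 in males. The stromal list had 14 higher members in females and 0 in males (medians 0.89 and 0.073), and the macrophage list had 10 in females and 1 in males (medians 0.92 and -0.041). The respiratory chain list had 20 lower members in females and 1 in males (medians -0.43 and -0.32). No member of these 3 lists passed the test of the difference between the sexes, the smallest adjusted p being 0.0843 for Fbn1, 0.0843 for Itgam and Ccr2, and 0.120 for Cox6a1.

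**Figure D4:**
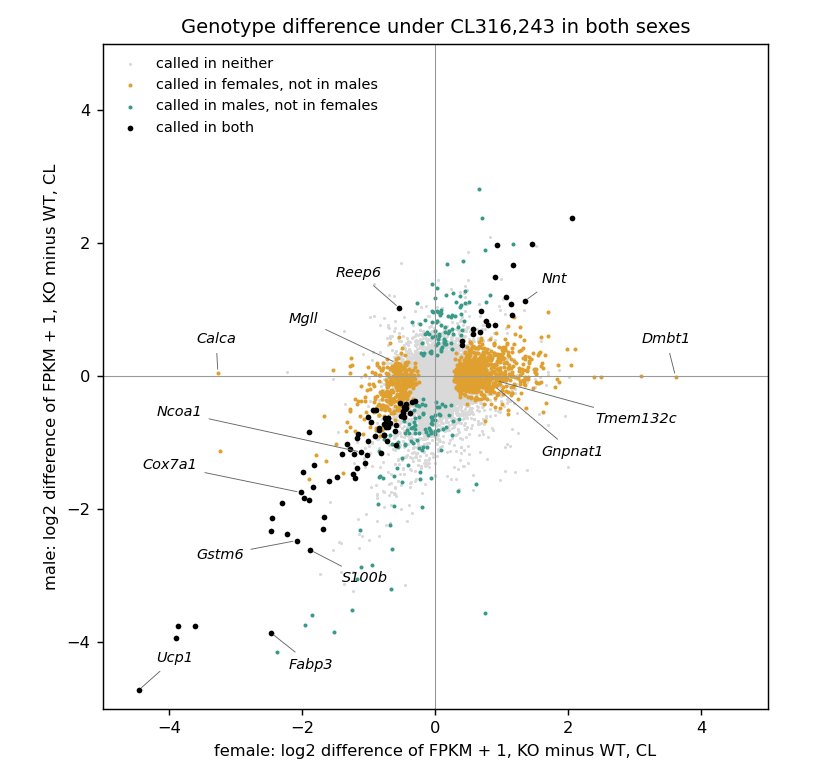
Log2 difference of FPKM + 1, KO minus WT under CL, in females (horizontal axis, 3 and 4 libraries) against males (vertical axis, 4 and 4 libraries) for 12710 genes, marked by where each was called. Ucp1 lies low on both axes, at -4.46 in females and -4.72 in males, and Reep6 is the 1 gene called in opposite directions.

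The 4 genes that passed were Reep6, Gnpnat1, Tmem132c and Mgll. Reep6, which shapes the endoplasmic reticulum, had 48.3, 43.8 and 42.0 FPKM in KO libraries, against 65.4, 75.8, 64.2 and 58.1 FPKM in WT libraries. Its female log2 difference of -0.55 ± 0.13 stood against 1.03 in males, so the sexes differed by -1.58 (adjusted p = 0.00337). The call of Reep6 in females was lost without KO replicate 2, KO replicate 3 or WT replicate 2. Gnpnat1, of the hexosamine pathway, had 14.2, 14.1 and 15.7 FPKM in KO libraries, against 8.35, 7.91, 5.93 and 7.92 FPKM in WT libraries. Its female difference of 0.88 ± 0.12 stood against -0.14 in males (1.02 between the sexes, adjusted p = 0.0435). Tmem132c, a membrane protein gene at a low level, had 1.27, 1.42 and 1.43 FPKM in KO libraries, against 0.31, 0.18, 0.21 and 0.36 FPKM in WT libraries, and differed by 0.97 between the sexes (adjusted p = 0.0435). Mgll, lower in KO females as described above, had a male difference of 0.20 that did not pass, and the sexes differed by -0.79 (adjusted p = 0.0435). Pnpla2, the lipase of the first step, missed the threshold of this test (-1.18, adjusted p = 0.0518), with a male difference of 0.51. The number of genes passing was 1 without KO replicate 3 or WT replicate 2, 2 without KO replicate 2, 86 without WT replicate 1 and 137 without WT replicate 4.

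Chromosome 12, which carries Ncoa1, was looked at on its own. Of 27 genes that start within 5 Mb of Ncoa1, 1 was called in females, Laptm4a, a lysosomal membrane protein (log2 0.33 ± 0.10, adjusted p = 0.0481). That is 3.70% of the genes there, against 10.7% of all genes, and Laptm4a was not called without any 1 of the KO libraries or of WT replicates 1 to 3. Genes called in both sexes in the same direction numbered 88 of 12710 in all (0.692%). Of these, 8 lay from 0 to 30 Mb beyond the start of Ncoa1 (8.70% of 92 genes tested there) and 0 farther along the chromosome (of 347). In steps of 10 Mb the counts were 1 of 24, 6 of 28 and 1 of 40. The genes were Rdh14, Pqlc3, Iah1, Itgb1bp1, Eipr1 and the predicted genes Gm29758, Gm32719 and Gm46340, 5 of them lower and 3 higher in KO females. Pqlc3, a lysosomal transporter gene, had 8.26, 10.4 and 10.7 FPKM in KO libraries, against 15.1, 22.0, 18.5 and 16.9 FPKM in WT libraries (log2 -0.82 ± 0.12, adjusted p = 0.00344). Itgb1bp1, an integrin-binding protein, had 70.7, 81.1 and 76.0 FPKM in KO libraries, against 57.4, 42.6, 32.4 and 49.1 FPKM in WT libraries (log2 0.76 ± 0.17, adjusted p = 0.0176). In both, the genotypes did not overlap. The window was chosen after these values were seen and gets no test. Its count was 3 without KO replicate 2 or KO replicate 3, 4 without the 2 male libraries high in muscle genes, and 3 to 9 over all alternatives in which it was counted.

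**Figure D5:**
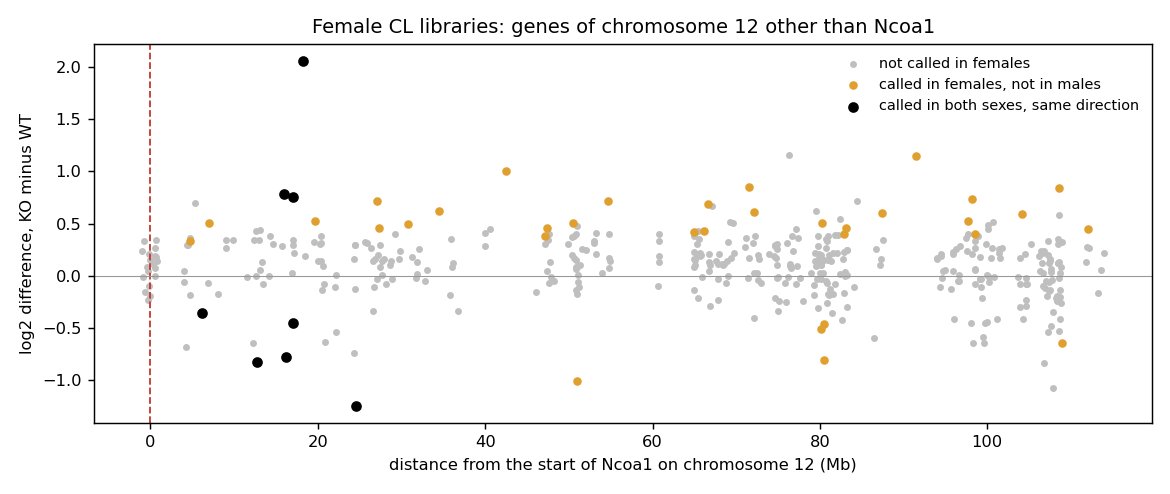
Log2 difference of FPKM + 1, KO minus WT females under CL, of the tested genes of chromosome 12 by distance of their start from the start of Ncoa1 in Mb. The 8 genes called in both sexes in the same direction lie from 0 to 30 Mb, and 0 lie beyond.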

How the data were processed

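RNA of subcutaneous white adipose tissue was sequenced in 29 samples, of which 24 have a column in the table used here, and a second table was not used. The values are FPKM per gene as deposited by the authors. Reads were aligned with HISAT2 2.0.4 to GRCm38 (mm10), per the submitters' processing notes; the sources used here name no program or annotation behind the FPKM values. The table has 18658 genes and 24 library columns, with 18536 identifiers in the RefSeq annotation. It stores 26 symbols as dates. These were replaced by the RefSeq symbol of the gene identifier, or named by the identifier where RefSeq lacked it. Depth is unknown because no read counts are given, and the number of libraries limits the precision.

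FPKM was put on the log2 scale with a pseudocount of 1, which makes differences of low genes smaller. A gene was kept where 3 or more CL libraries reached 1 FPKM, which left 12710. limma (version 3.58.1, R 4.3.3) was fitted to the 15 CL libraries of both sexes with 1 mean per group, 11 residual and 3.17 prior degrees of freedom, and p-values were adjusted by Benjamini-Hochberg over all genes tested at 0.05. The difference between sexes is the interaction term of that fit. Tables, the exact permutation test of library totals and figures used Python 3.11.15, pandas 2.3.3, scipy 1.17.1 and matplotlib 3.10.9.

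On simulated data with 50 genes changed at each size, 42% of log2 changes of 0.5, 80% of 1, 96% of 2 and 100% of 4 were recovered among 12710 genes in KO against WT females, with 8 false calls. Each gene was drawn independently from a normal distribution with its own spread, with no effect shared by a library. The real calls hang on single libraries, so these rates and the false calls do not carry over to them.

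Genes named are a fixed set of the targeted and thermogenic genes, the 12 largest called changes in each direction among genes whose groups do not overlap and whose higher group averages 5 FPKM or more (immune receptor segments, pseudogenes and genes known only by prediction were not eligible), up to 4 members of each list, genes near Ncoa1 and genes passing the interaction test. Other list members are named where they were called or contrast with a called one; a few are counted but not reported here by name. The members and lists were chosen with earlier results of these data known. The alternatives were 3 scalings, 2 pseudocounts, 2 filters, fits to 7 or to all libraries, a robust fit, a replicate block, and leaving out each female library. The fits without 2 muscle-high male libraries and without 2 Krt18-high female libraries were added after seeing the data.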

Additional observations from a re-analysis of the deposited data

Results flagged for a closer look

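In 8 of 175 WT groups tested, 1 library stood far from the other 3 by Dixon's criterion, which chance gives in about 5% of groups. WT replicate 4 was the highest for Cfd (14705 FPKM), Nr3c1 (23.9 FPKM), Fads1 (47.9 FPKM), Gpat3 (35.7 FPKM), Abca1 (14.7 FPKM) and Mup9 (33.5 FPKM). WT replicate 1 was the highest for Plod2 (16.9 FPKM) and Krt19 (698 FPKM). The 3 KO libraries were too few for this test.

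The genotype difference differed between females and males in the interaction test for 4 genes. The female minus male log2 values were 1.02 for Gnpnat1, -0.79 for Mgll, -1.58 for Reep6 and 0.97 for Tmem132c.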

How the results depend on the processing

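The calls depend on few libraries, on pooling with males and on scaling, and FPKM leaves absolute depth unknown. With any 1 female library left out, total calls ranged from 164 to 1989, higher calls from 87 to 1457, lower calls from 77 to 532 and interaction calls from 1 to 137. Fitted to the 7 female libraries alone, 237 genes were called, 136 higher and 101 lower, and no interaction could be fitted. Higher calls were 511 with median-of-ratios scaling and 548 with quantile normalization. Interaction calls were 10 with median-of-ratios scaling, 1 with a pseudocount of 0.1, with all libraries of the table, with the robust fit or without the 2 muscle-high male libraries, 7 with a pseudocount of 5, 18 without the filter and 121 without the 2 Krt18-high female libraries. The replicate block gave 958 calls (678 higher and 280 lower) and 5 for the interaction. Across genes, deviations from the group means correlated at -0.147, 0.0757 and 0.150 between same-numbered KO and WT libraries. Between differently numbered ones they correlated at -0.504 to 0.516, so these values do not settle whether the numbers pair libraries. Directions changed for Ncoa3 (-0.022 without KO replicate 3, and up to 0.296 without other single libraries), Eno3 (0.061 without the Krt18-high libraries), Krt19 (-0.036 with median-of-ratios scaling, and -0.378 to 0.602 with single libraries left out) and Kdm5c (0.050 with equal totals, 0.0050 without the Krt18-high libraries, and -0.131 to 0.117 with single libraries left out), 4 genes that were not called. The causes were not tested. Over all named genes and alternatives, 2976 values kept direction and side of the threshold, 425 lost a call, 68 gained one and 10 changed direction.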

Other observations

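Among genes called in both sexes that belong to no list, several moved in the same direction, chosen here after their values were seen. Selenop, a plasma selenium carrier, averaged 1067 ± 42.3 FPKM in KO libraries and 588 ± 158 FPKM in WT libraries in females (log2 0.89 ± 0.17). Alb, serum albumin, averaged 53.6 ± 8.53 FPKM in KO libraries and 29.2 ± 8.55 FPKM in WT libraries (log2 0.89 ± 0.20). Lctl, of the klotho family, averaged 5.89 ± 1.95 FPKM in KO libraries and 24.1 ± 2.62 FPKM in WT libraries (log2 -1.90 ± 0.21), and Wdfy1, an endosomal adaptor, averaged 3.20 ± 0.551 FPKM in KO libraries and 7.77 ± 1.14 FPKM in WT libraries (log2 -1.06 ± 0.15). The male log2 differences were 0.77 for Selenop, 1.49 for Alb, -0.84 for Lctl and -1.30 for Wdfy1. With 1 female library left out, Selenop and Alb were each called in females in 5 of 7 fits. Lctl and Wdfy1 were called in 7 of 7.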
